A study of Limonium bicolor with 5 samples.

Results

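GL1, WER and MYB23 are 3 closely related transcription factors of the R2R3 MYB family, and their Limonium bicolor genes were followed through 5 stages of the first true leaf. The genes were taken as the rows of the deposited table paired with the Arabidopsis loci AT3G27920 (GL1, Limonium identifier LB09717), AT5G14750 (WER, LB15013) and AT5G40330 (MYB23, LB16220), which makes 3 of 18327 genes. The table describes these loci as myb domain protein 0, 66 and 23, and the symbols were paired with the loci from general knowledge. GL1 is a locus of Arabidopsis chromosome 3, and WER and MYB23 are loci of chromosome 5.

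Limonium bicolor is a salt-secreting plant whose leaf epidermis carries multicellular salt glands. Poly(A) RNA came from leaves grown in tissue culture, and the labels name no genotype or treatment that differed between the groups. By their labels, the leaves of stage A were undifferentiated (about 5000 pooled), those of stage B had formed salt glands (4000), those of stage C stomata (2000) and those of stage D an epidermis (1000), while those of stage E were mature (1000). The labels add that each stage was run in 2 lanes that are called biological replicates, but the table gives 1 column per stage, so no spread between replicates was known and no p-value was computed.

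In Arabidopsis the 3 proteins are the DNA-binding MYB part of a complex with a bHLH protein (GL3 or EGL3) and the WD40 protein TTG1. The complex sets the fate of epidermal cells: GL1 acts in leaf trichomes, WER in the hairless cells of the root epidermis, and MYB23 in both. It switches on GL2 and TTG2, and also small single-repeat MYBs such as CPC and TRY, which move to neighbouring cells and compete with the activators for the bHLH partner. These roles are known from Arabidopsis, and none was measured here in Limonium.

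Values are RPM, the reads of a gene scaled to the size of its library (1000000 reads), which are not divided by gene length, so a gene was compared with itself between stages and not with another gene in level. A gene was called changed where log2(RPM + 1) differed by at least 1, the higher stage reached 5 RPM and the largest of the 5 values reached 1 RPM, a rule of size without a test. The interval beside a fold is an exact 95% interval (Clopper-Pearson) from the reads behind the values. Such an interval covers only counting error, because 1 column per stage shows no spread between plants or libraries. Reads amplified from 1 molecule are counted apart, so the interval may be too narrow even for counting error. The libraries held between 5939374 reads (stage A) and 16556653 reads (stage B), and the floor, set at 3 reads, came to 0.505 RPM for stage A and to 0.181 to 0.232 RPM elsewhere.

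The library of stage C stood apart from the other 4, and every value of the 3 genes in stage C has to be read beside this. Over 18165 genes, log2(RPM + 1) of stage C correlated with that of stage B at 0.785 and with that of stage D at 0.763 (Pearson), where stages B and D gave 0.864. Loci of Arabidopsis chromosome 1 took 40.4% of the reads in stage C and at most 28.3% in any other stage, and loci of chromosome 5 took 15.1% in stage C and at least 22.0% elsewhere. Results that rest on stage C are therefore given beside the direct comparison of stage D with stage B, which leaves it out.

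The leaf labels were checked against markers. The mesophyll genes RBCS1A, CA1 and LHCB2.2 had reads in all 5 stages, with sums of 260, 752, 4088, 8800 and 1009 RPM from the first stage to the last. All 3 were lower in the mature leaf than in stage D, LHCB2.2 going from 3941 to 91.8 RPM. The stomatal lineage genes SPCH and FAMA did not peak in the stage labelled for stomata: SPCH stood at 26.7 RPM in stage B and 5.46 in stage C, and FAMA at 10.4 and 4.41 RPM, a fall whose call was lost after median-of-ratios scaling, which sets the middle gene of each library level. STM and KNAT1, homeobox genes of the shoot meristem, each had 44 reads in stage A (7.41 RPM), and in stage B they were at 0.544 and 0.846 RPM. The 4 root hair markers COBL9, EXPA7, LRX1 and RSL4 summed to at most 4.71 RPM outside stage C and to 55.5 RPM in it. In stage C the expansin EXPA7 was at 48.6 RPM, whereas it had 3 reads in stage A and 0 in stages B, D and E. LRX1 (2.24 RPM) and RSL4 (4.27 RPM) were also highest in stage C. COBL9 went the other way, at 0.420 RPM in stage C and 2.01 to 4.05 RPM elsewhere. COBL9 is a locus of chromosome 5, and the other root hair markers are loci of chromosome 1.

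All 3 MYB genes were highest in the undifferentiated leaf and lowest in the mature leaf, and between these ends they followed different courses. In stages A to E, WER stood at 161, 63.4, 8.54, 19.6 and 7.11 RPM, with 954 reads in stage A and 92 in stage E. MYB23 stood at 113, 46.6, 7.98, 42.6 and 7.26 RPM in the same order, with 669 reads at the start and 94 at the end. GL1 stood at 31.3, 11.5, 7.84, 4.83 and 1.24 RPM, with 186 reads in stage A and 16 in stage E. GL1 thus went down at each step, while WER and MYB23 were higher in stage D than in stage C.

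**Figure D1:**
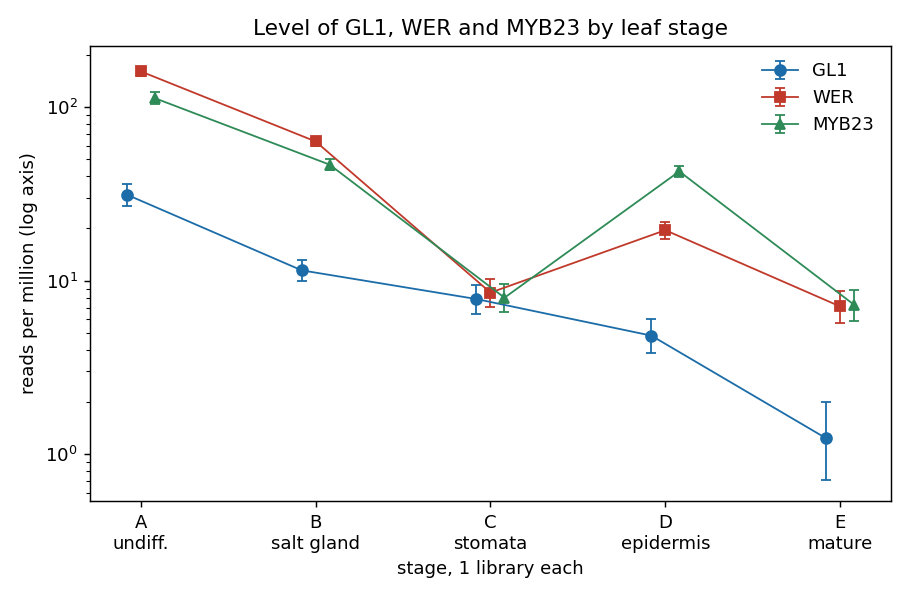
Level of GL1, WER and MYB23 in RPM (vertical log axis) in the 5 leaf stages, with 1 library per stage; bars are exact 95% counting intervals. All 3 genes start highest in stage A and end lowest in stage E, and in stage C their values lie between 7.84 and 8.54.

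Neighbours in these orders did not all differ beyond counting error. For GL1, on the RPM scale, each neighbouring pair of stages was separated, the closest being stages B and C at 1.46-fold (1.15 to 1.87). For WER, stages C and E stood 1.20-fold apart (0.909 to 1.59), an interval that includes equality. For MYB23 the same held for stages B and D, at 1.09-fold (0.986 to 1.21), and for stages C and E, at 1.10-fold (0.829 to 1.46). With median-of-ratios scaling the order of MYB23 changed to stage A, then D, then B. Under it, MYB23 in stage B was 0.832-fold of stage D (0.750 to 0.923), and in stage C 1.34-fold of stage E (1.01 to 1.78). Neither of these intervals includes equality. The same scaling brought GL1 in stages B and C to 1.18-fold (0.928 to 1.5), which includes equality, and moved WER in stages C and E to 1.46-fold (1.11 to 1.94). Stage A was also the peak of 21.5% of the 15603 genes with at least 5 RPM in some stage, and 737 (4.72%) had the order A, B, D, E from high to low that the 3 genes share when stage C is left out.

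Between stages A and B the leaf forms its salt glands. All 3 genes fell, by nearly the same factor: GL1 by 2.73-fold (2.22 to 3.36), WER by 2.53-fold (2.32 to 2.77) and MYB23 by 2.42-fold (2.17 to 2.68). Among all 18165 genes tested, 3.10% were called lower and 7.47% higher in this comparison (4.39% and 5.36% after median-of-ratios scaling). A log2 difference below that of MYB23, -1.25, was found in 2.18% of the genes, and the median over all genes was 0.10. The 3 falls did not differ beyond counting error: the number of WER reads per GL1 read was 5.13 (4.38 to 6.03) in stage A and 5.53 (4.73 to 6.48) in stage B. A ratio of 2 genes within a library is free of scaling, and gene length cancels when it is compared between stages. Stage A over stage B, the WER to GL1 ratio changed by a factor of 0.928 (0.740 to 1.16) and the WER to MYB23 ratio by 1.05 (0.913 to 1.20).

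The epidermal layer genes ATML1 and PDF2, homeodomain factors that mark the outermost cells, were not called in this comparison. ATML1 stood at 58.8 RPM in stage A and 51.3 in stage B, and PDF2 at 45.6 and 41.6. Summed reads of the 3 MYB genes per read of ATML1 and PDF2 went from 2.92 (2.66 to 3.20) in stage A to 1.31 (1.22 to 1.40) in stage B. Both measured meristem genes were called lower in stage B with the MYB genes, their summed level going from 14.8 RPM in stage A to 1.39 RPM in stage B, and their part in the result was not tested. In whole leaves, fewer cells of a type and less RNA per cell cannot be told apart.

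Stage C leaves had formed stomata, and were compared with stage B. WER fell 7.43-fold (6.15 to 9.03) and MYB23 5.84-fold (4.79 to 7.18), while GL1 was called neither way at 11.5 and 7.84 RPM. Over all genes, 23.0% were called lower and 15.3% higher in this comparison (16.5% and 19.6% after median-of-ratios scaling), and the median log2 difference was -0.24. The share called lower was larger, 35.2%, among loci of chromosome 5, which include WER and MYB23, and 24.5% among those of chromosome 3, which include GL1. Scaling each gene to the reads of loci on its own chromosome left log2 differences of -2.10 for WER, -1.76 for MYB23 and -0.26 for GL1, with the same calls, where 20.9% of all genes were called lower. The epidermal layer genes were called lower here too, ATML1 by 4.58-fold (3.87 to 5.46) and PDF2 by 3.0-fold (2.56 to 3.53), and all 3 mesophyll markers were called higher; their part in the result was not tested. Per read of ATML1 and PDF2, WER was 2.0-fold lower in stage C (1.60 to 2.52) and MYB23 1.58-fold lower (1.25 to 2.0), while GL1 was 2.53-fold higher (1.93 to 3.31).

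The 3 genes also became alike in stage C, where 112 reads fell on GL1, 122 on WER and 114 on MYB23. The number of WER reads per GL1 read was 1.09 (0.836 to 1.42) there, against values from 4.05 to 5.75 in the other 4 stages. MYB23 reads per GL1 read stood at 1.02 (0.777 to 1.33) in stage C and from 3.60 to 8.84 elsewhere. Stage B over stage C, the WER to GL1 ratio changed by a factor of 5.07 (3.71 to 6.92), and stage D over stage C by 3.71 (2.57 to 5.39).

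**Figure D2:**
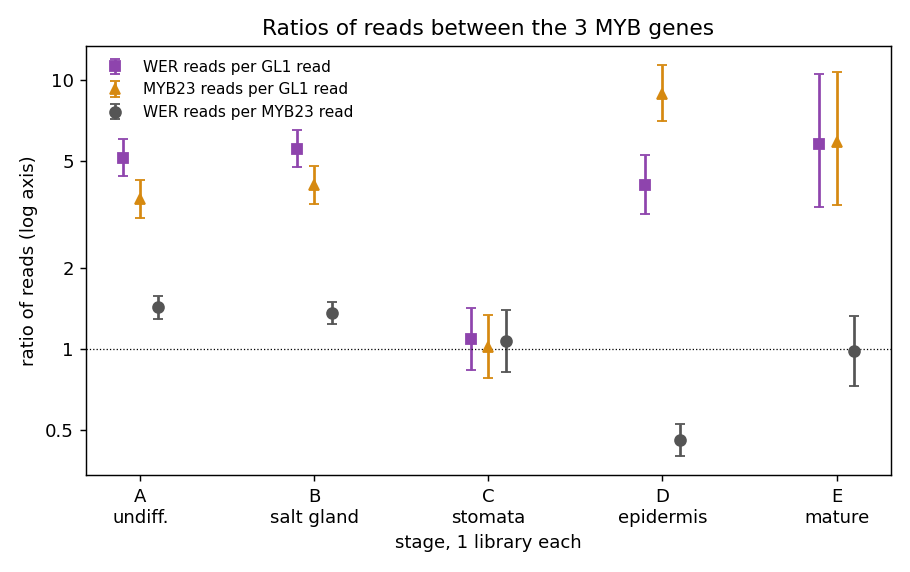
Ratios of reads between pairs of the 3 MYB genes (vertical log axis) by stage, with 1 library per stage and exact 95% counting intervals. The 3 ratios lie between 1.02 and 1.09 in stage C, and WER reads per MYB23 read drop to 0.458 in stage D.

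The same evenness was seen across the MYB family in stage C. The table holds 107 loci described as a numbered MYB domain protein, the 3 genes included. In stage C, 81 of them lay within 2-fold of the family median of 8.33 RPM, against 25 to 31 in the other stages. None of the 107 was at or under 3 reads in stage C, whereas 18 to 28 were in each other stage. The standard deviation of log2(RPM + 1) over these loci was 0.88 in stage C and between 1.54 and 1.95 elsewhere, while over all 18165 genes it was 2.19 in stage C and 2.2 to 2.31 elsewhere. GL1, WER and MYB23, which lay above the family median in every other stage, had values of 7.84 to 8.54 RPM there, next to that median. GL1 was also next to the median in stage E, at 1.24 RPM beside 1.16 RPM. These places within the family are not corrected for gene length.

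**Figure D3:**
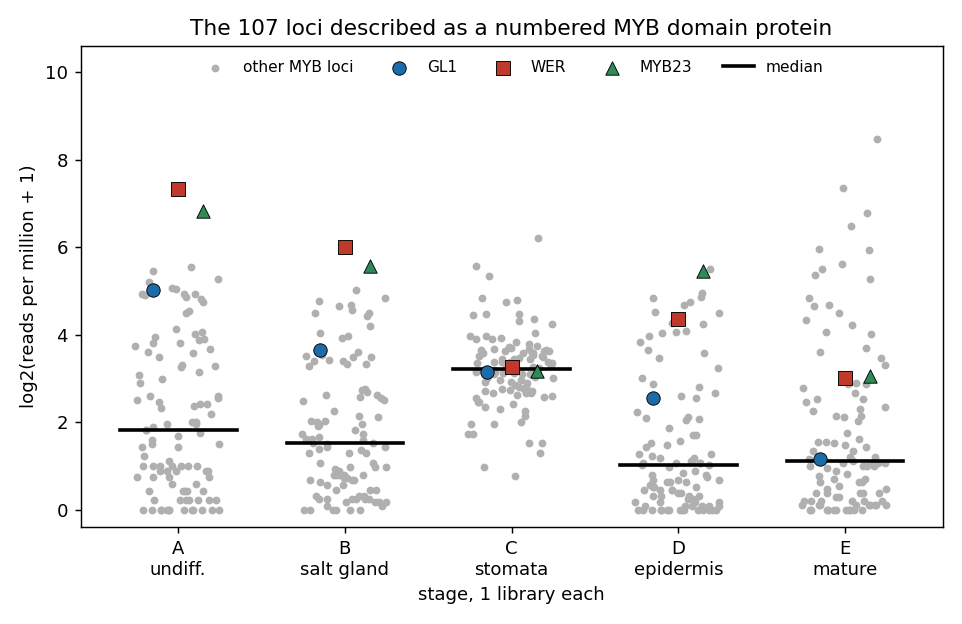
log2(RPM + 1) of the 107 loci described as a numbered MYB domain protein in each stage; grey points are single loci, coloured symbols the 3 genes and black lines the median. In stage C the points draw together around a median of 8.33 RPM, and all 3 genes lie next to it.

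The stage of lowest WER and MYB23 before the mature leaf thus coincided with a library in which most MYB loci had similar values. Of the 107 loci, 56 were called higher and 7 lower from stage B to stage C, and 7 higher and 61 lower from stage C to stage D. Over all genes the shares were 15.3% higher and 23.0% lower in the first of these comparisons, and 17.4% and 19.5% in the second. The part of this evenness in the values of the 3 genes was not tested, and a change with the stage cannot be told apart from a property of that library. The 3 genes together held 27.7% (26.6 to 28.8) of the reads of the 107 loci in stage A, 19.0% in stage B and 2.2% in stage C. Stage D gave 12.0% and stage E 1.16% (1.01 to 1.34).

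Stage D, labelled for its differentiated epidermis, was compared with stage C. MYB23 rose 5.34-fold (4.38 to 6.57), and WER was called higher at 2.29-fold (1.85 to 2.84). The call of WER was lost at a log2 difference of 0.61 when each gene was scaled to its own chromosome, and its counting interval also reaches below 2-fold. GL1 was not called, at 7.84 and 4.83 RPM. Of all genes, 17.4% were called higher and 19.5% lower in this comparison (19.3% and 18.7% after median-of-ratios scaling, 15.8% higher with each gene scaled to its chromosome). Of those on chromosome 5, 25.6% were called higher.

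Stage D was then set directly against stage B, without stage C. WER fell 3.24-fold (2.86 to 3.69), from 63.4 to 19.6 RPM, and GL1 fell 2.38-fold (1.82 to 3.13), from 11.5 to 4.83 RPM. MYB23 was not called, at 46.6 and 42.6 RPM. Of all genes, 19.5% were called lower and 10.5% higher, so that 2 of 3 genes lower here is to be read against a common direction. After median-of-ratios scaling 11.5% were lower and 15.3% higher, and GL1 lost its call at a log2 difference of -0.75. All genes had a median of -0.29, and set against it the log2 differences were -0.81 for GL1, -1.36 for WER and 0.16 for MYB23. ATML1 and PDF2 were also called lower in stage D, by 2.49-fold (2.2 to 2.84) and 2.15-fold (1.88 to 2.46), calls that median-of-ratios scaling removed, and the 3 mesophyll markers were called higher under both scalings. Their part in the result was not tested. Per read of ATML1 and PDF2, GL1 differed by 1.02-fold (0.769 to 1.37), which includes equality, WER was 1.39-fold lower in stage D (1.19 to 1.63), and MYB23 was 2.13-fold higher (1.85 to 2.45).

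MYB23 parted from the other 2 genes between stages B and D. The number of WER reads per MYB23 read was 1.43 (1.29 to 1.58) in stage A, 1.36 (1.24 to 1.49) in stage B, 0.458 (0.400 to 0.524) in stage D and 0.979 (0.726 to 1.32) in stage E. Stage B over stage D, this ratio changed by a factor of 2.97 (2.52 to 3.50). MYB23 reads per GL1 read went from 4.06 (3.46 to 4.79) to 8.84 (6.99 to 11.3), a change by 2.17 (1.63 to 2.92). The WER to GL1 ratio changed less, by a factor of 1.36 (1.01 to 1.84) for stage B over stage D. MYB23 thus made up 38.4% (36.2 to 40.5) of the reads of the 3 genes in stage B and 63.6% (60.7 to 66.5) in stage D.

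The mature leaf (stage E) was compared with stage D, where MYB23 had stood close to its stage B level on the RPM scale. MYB23 fell 5.87-fold (4.73 to 7.36), from 42.6 to 7.26 RPM, and WER fell 2.75-fold (2.18 to 3.51), from 19.6 to 7.11 RPM. GL1 went from 4.83 to 1.24 RPM, a ratio of 3.90 (2.26 to 7.16), but was not called because neither stage reached 5 RPM. Over all genes, 6.65% were called lower and 13.1% higher. After median-of-ratios scaling, which also called GL1, it was 10.2% and 6.13%. The median of all genes was 0.28, and 1.16% of the genes had a log2 difference below that of MYB23, which was -2.40. Stage E over stage D, the WER to MYB23 ratio changed by a factor of 2.13 (1.54 to 2.97). All 3 mesophyll markers were called lower in the same comparison, RBCS1A by 2.78-fold (2.68 to 2.88), CA1 by 6.56-fold (6.41 to 6.71) and LHCB2.2 by 42.9-fold (40.6 to 45.5), and their part in the result was not tested. ATML1 and PDF2 were not called, and per read of both the 3 MYB genes together were 6.85-fold lower in stage E (5.69 to 8.26).

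Over the whole course, from stage A to stage E, the 3 genes fell by 25.3-fold for GL1 (15.2 to 45.3), 22.6-fold for WER (18.2 to 28.3) and 15.5-fold for MYB23 (12.5 to 19.5). Among all genes 13.7% were called lower and 18.6% higher (15.6% and 16.5% after median-of-ratios scaling), and 0.897% had a log2 difference below that of WER. The intervals of GL1 and WER overlap, and the WER to GL1 ratio of stage A over stage E was 0.892 (0.478 to 1.57), so with 16 GL1 reads in stage E a difference between them was not detectable at this depth. For WER and MYB23 the ratio changed by 1.46 (1.06 to 2.0). Summed over the 3 loci, which guards against reads moved among them, the level went from 305 RPM in stage A to 122, 24.4, 67.0 and 15.6 RPM in stages B to E. The sum fell 19.5-fold (16.9 to 22.7) from stage A to stage E.

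Over the MYB family as a whole, calls went both ways. Of the 107 MYB loci, the 3 genes among them, 15 were called lower and 12 higher from stage A to stage E, with a median log2 difference of -0.12. Among all genes 13.7% were called lower and 18.6% higher, so the lower calls were near the background and the higher calls below it. Of the 107, 3 had a lower value than GL1 in that comparison, 2 a lower one than WER and 4 a lower one than MYB23. In stage B 15 of the 107 were called lower than in stage A and 0 higher, where all genes gave 3.10% lower and 7.47% higher. In that comparison 8 of the 107 had a lower value than GL1, 9 a lower one than WER and 11 a lower one than MYB23.

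The rest of the patterning network was read from a list with 22 other measured genes. A further 7 listed loci, all targets or upstream regulators, were absent from the deposited values. The list was drawn up from general knowledge of Arabidopsis with earlier results of these data known. From stage A to stage B, 1 of the 22 was called higher and 0 lower, against 7.47% higher and 3.10% lower of all genes. Their median log2 difference was -0.02, where that of the 3 activators was -1.33 and that of all genes 0.10. From stage A to stage E, 2 of the 22 were called higher and 4 lower (18.6% and 13.7% of all genes), with a median of -0.51 against -3.85 for the activators and 0.09 for all genes. From stage B to stage D, 11 of the 22 were called lower and 1 higher, where 19.5% and 10.5% of all genes were. Their median was -0.92, against -1.10 for the activators and -0.29 for all genes. After median-of-ratios scaling 5 were lower and 1 higher, beside 11.5% and 15.3% of all genes.

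**Figure D4:**
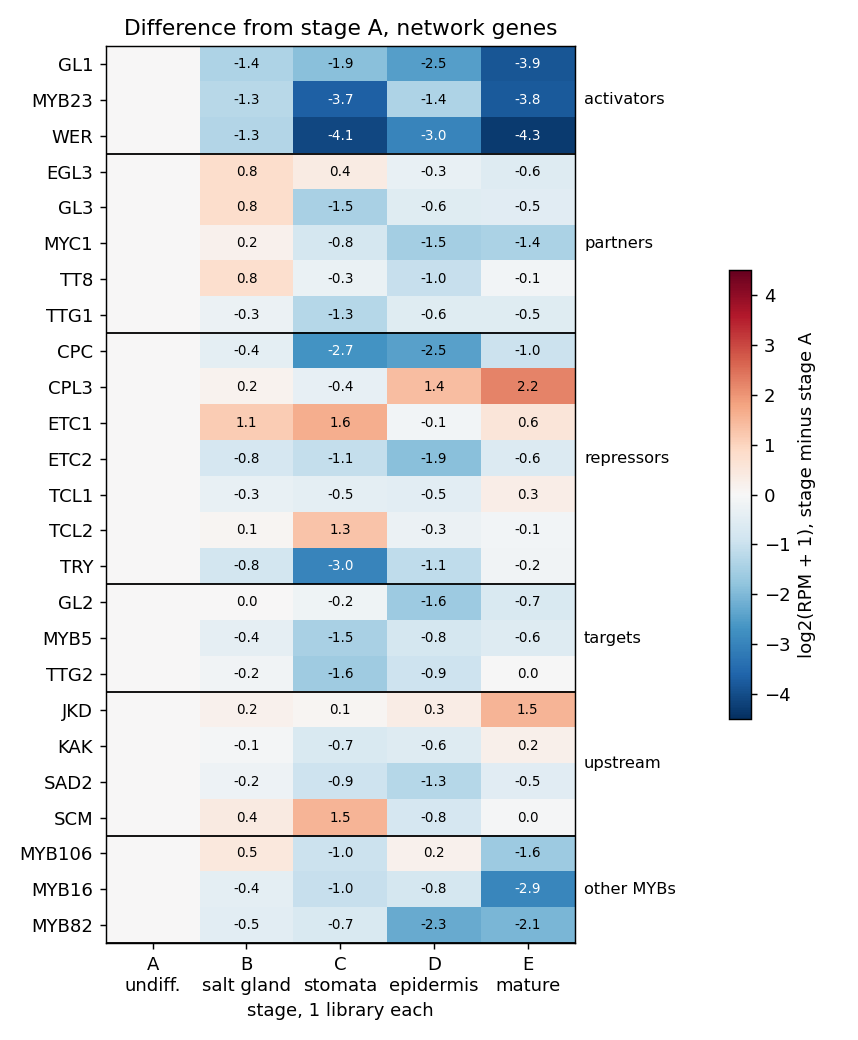
log2(RPM + 1) of each stage minus that of stage A for the 3 activators and 22 other genes of the patterning network, with 1 library per stage and the difference printed in each cell. The activators are lower than in stage A in all later stages, down to -4.32 for WER in stage E, while most partners and repressors stay nearer to their stage A level.

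None of the 5 partners was called between stages A and B, where 3.10% of all genes were called lower and 7.47% higher. GL3, EGL3 and TT8 had higher values in stage B. GL3 stood at 20.5 RPM in stage A and 36.1 in stage B, and EGL3 at 14.0 and 25.0 RPM. TT8, a related bHLH of the flavonoid and seed coat pathway, stood at 20.7 and 36.1 RPM. TTG1, the WD40 scaffold, stood at 9.60 and 7.85 RPM. Activator reads per read of GL3 and EGL3 therefore went from 8.82 (7.63 to 10.2) in stage A to 1.99 (1.84 to 2.15) in stage B, a change by 4.44 (3.76 to 5.25). In stage D this ratio was 2.74 (2.44 to 3.08) and in stage E 0.671 (0.559 to 0.805). Of these ratios only changes between stages can be read, since a sum of reads gives more weight to longer genes.

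Between stages B and D, 4 of the 5 partners were called lower, 2 of them after median-of-ratios scaling, where 19.5% and 11.5% of all genes were. GL3 fell 2.64-fold (2.26 to 3.09), EGL3 2.33-fold (1.94 to 2.79), TT8 3.74-fold (3.13 to 4.48) and MYC1, another bHLH of this group, 3.44-fold (2.99 to 3.97). The calls of GL3 and EGL3 were lost with that scaling. From stage A to stage E, MYC1 alone among the 5 was called, 2.76-fold lower (2.30 to 3.31). Of all genes, 13.7% were called lower and 18.6% higher there.

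Of 7 measured single-repeat repressors, 0 were called lower and 1 was called higher from stage A to stage E (after median-of-ratios scaling, 1 each way), beside 13.7% lower and 18.6% higher of all genes. CPL3, described in the table as CAPRICE-like MYB3, went from 5.22 to 28.5 RPM, a rise of 5.46-fold (3.78 to 8.16). CPC fell between stages B and D, from 52.2 to 12.1 RPM, and rose to 35.9 RPM in stage E. ETC1 stood at 12.3, 28.4, 40.2, 11.2 and 18.6 RPM in stages A to E. It was called 2.31-fold higher in stage B than in stage A (1.80 to 3.0). From stage B to stage D, CPC, ETC1 and ETC2 were called lower (3 of 7) and CPL3 higher, beside 19.5% and 10.5% of all genes. After median-of-ratios scaling CPC alone was lower and CPL3 alone higher, beside 11.5% and 15.3%. TCL1 and TCL2 were called in neither comparison. TRY stood at 32.5, 18.1, 14.2 and 28.8 RPM in stages A, B, D and E. Activator reads per repressor read went from 2.23 (2.05 to 2.42) in stage A to 1.06 (0.992 to 1.13) in stage B, 1.14 (1.04 to 1.24) in stage D and 0.124 (0.107 to 0.144) in stage E. The change from stage A to stage E was 18.0-fold (15.2 to 21.4).

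**Figure D5:**
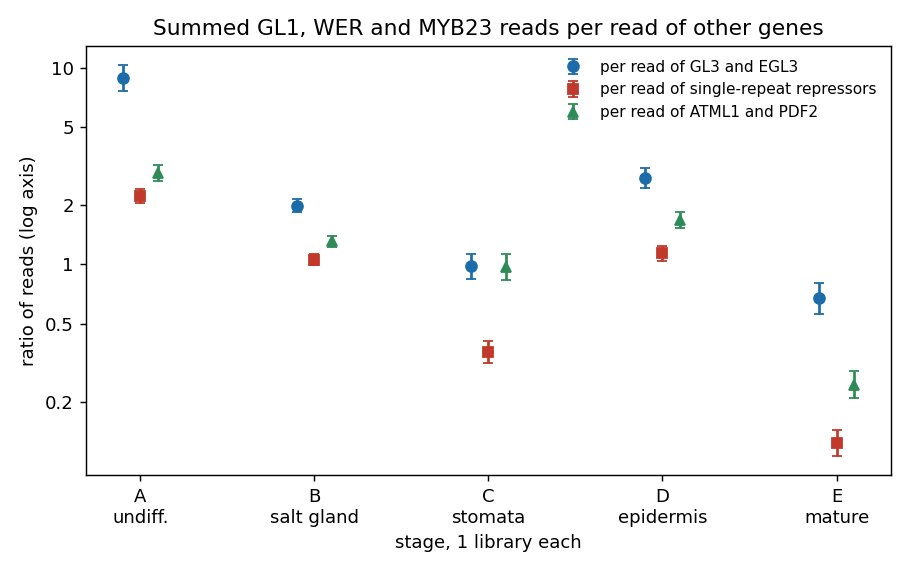
Summed reads of GL1, WER and MYB23 per read of 3 other gene groups (vertical log axis) by stage, with 1 library per stage and exact 95% counting intervals. All 3 ratios are highest in stage A and lowest in stage E; per repressor read the value goes from 2.23 to 0.124.

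Among the targets, GL2, the homeodomain factor the complex switches on, stood at 13.0 RPM in stage A and 13.3 in stage B, where the activators fell. It fell 3.82-fold (2.84 to 5.20) from stage B to stage D, and stood at 7.72 RPM in stage E. TTG2, a WRKY factor, stood at 22.6 RPM in stage A and 22.5 in stage E, and MYB5, a MYB of the seed coat and trichomes, at 32.7 and 21.7 RPM. None of the 3 measured targets was called between stages A and E, beside the 18.6% higher and 13.7% lower of all genes.

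Of 4 measured upstream regulators, SAD2, an importin needed for trichomes, KAK, a ubiquitin ligase that acts on GL3 and EGL3, and the receptor-like kinase SCM were not called between stages A and E. JKD, a zinc finger factor of root epidermal patterning, rose 3.01-fold (2.47 to 3.70) in that comparison. The 3 other MYBs with roles in trichomes or the epidermal surface all fell from stage A to stage E, where 13.7% of all genes were called lower. MYB16 fell 9.25-fold (6.83 to 12.7), MYB82 5.48-fold (3.57 to 8.60) and MYB106 3.43-fold (2.59 to 4.56). None of these 3 was called between stages A and B, where MYB16 stood at 37.9 and 27.7 RPM, MYB82 at 13.1 and 9.06 RPM, and MYB106 at 22.2 and 31.5 RPM. Of all genes, 3.10% were called lower and 7.47% higher in that comparison. Whether the step of these 3 MYBs differed from that of the activators was not tested.

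The genes with the most similar course were found as the root mean square difference of log2(RPM + 1), centred on each gene's mean over the 5 stages, among 13955 genes that reached 5 RPM and had a usable description. For GL1 the closest were a methyltransferase (AT5G04380) at 0.26, cinnamyl alcohol dehydrogenase 6 (AT4G37970) at 0.28, leucoanthocyanidin dioxygenase (AT4G22880), an enzyme of anthocyanin synthesis, at 0.29, myb domain protein 111 (AT5G49330) at 0.34 and cyclin D4;1 (AT5G65420) at 0.37. For WER they were flavonol synthase 2 (AT5G63580) at 0.33, cyclin D3;2 (AT5G67260), a cell cycle regulator, at 0.34, a glycosyl hydrolase (AT3G46570) at 0.34, ovate family protein 6 (AT3G52525) at 0.36 and a P-loop hydrolase (AT3G45850) at 0.39. Cyclin D3;2 stood at 294, 166, 12.7, 53.2 and 13.6 RPM in stages A to E. For MYB23 they were a pectin methylesterase (AT5G53370) at 0.33, a UDP-glycosyltransferase (AT4G15500) at 0.35, a GDSL-like lipase (AT5G45950) at 0.38, a bHLH protein (AT3G61950) at 0.39 and expansin B3 (AT4G28250), a cell wall protein, at 0.43. Likeness over 5 libraries is a description, and these genes share the library effects of each stage.

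Which genes were closest depended on stage C. WER and MYB23 differed by 0.57 over 5 stages, and 22 of the 13955 genes lay closer to WER than MYB23 did. GL1 and WER differed by 0.83 over 5 stages, with 671 genes closer to GL1. Without stage C, a choice made after the values had been seen, GL1 and WER differed by 0.25, with 4 genes closer to GL1 than WER and 3 closer to WER than GL1. WER and MYB23 then differed by 0.64, with 154 genes closer to WER.

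Without stage C the nearest genes were also others: 0 of the 5 were shared with the first list for GL1, 1 for WER and 0 for MYB23. The closest to GL1 was then flavanone 3-hydroxylase (AT3G51240), an early enzyme of flavonoid synthesis, at 0.12, with 26.1, 8.94, 4.70 and 0.772 RPM in stages A, B, D and E. The closest to WER was leucoanthocyanidin dioxygenase at 0.15, with 1081, 569, 157 and 57.1 RPM in these stages. The 3 closest to MYB23 were all described as phenylalanine ammonia-lyase, the entry enzyme of the phenylpropanoid pathway. Of these, phenylalanine ammonia-lyase 4 (AT3G10340) was the nearest at 0.12, with 227, 108, 82.7 and 14.0 RPM. Chalcone synthase (AT5G13930), which opens the flavonoid branch, followed for MYB23 at 0.23. An invertase/pectin methylesterase inhibitor (AT4G25260) came last of the 5 for MYB23. The others for GL1 were an actinin-binding protein (AT2G18876), a GDSL-like lipase (AT1G29660), a glycosyl hydrolase (AT3G46570) and WER. Those for WER were a homeodomain-like protein (AT2G01500), an oxygenase (AT4G22870), GL1 and cyclin D3;2. In stage C, left out here, phenylalanine ammonia-lyase 4 stood at 347 RPM and MYB23 at 7.98. These genes were named after their values had been seen.

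Median-of-ratios scaling moved the median log2 difference of all genes by -0.10 in the comparison of stages B and A, by 0.26 for C and B, by 0.30 for D and B and by -0.28 for E and D. Relative to the median of all genes under that scaling, the log2 differences of the 3 genes from stage A to stage B were -1.50 for GL1, -1.46 for WER and -1.39 for MYB23. From stage A to stage E they were -3.91, -4.42 and -3.88 in the same order.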

How the data were processed

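Poly(A) RNA of 5 leaf stages was measured, with 1 value column per stage matched to its label by name. Per the file headers the values are RPKM, but the deposited values are RPM: in every stage, 100% were a whole number of times the value of 1 read, to within 0.001 reads, which gave the reads behind each value. How reads were aligned, assembled and, if they matched several loci, counted is not given in the sources used here, and reads could have moved between loci of the MYB family. Members and lists were chosen with earlier results of these data known. The text names the 3 genes and the measured genes of the network and marker lists. It also names the 5 most similar genes with a usable description for each of the 3, over 5 stages and without stage C. The rule of size used a pseudocount of 1 RPM. No count test was run, since 1 sample per stage leaves no replicates. Calls and intervals were run on simulated counts with counting error only and planted 4-fold changes, as a check of the code. That check could not test spread between libraries or an effect like that of stage C. Alternatives were other pseudocounts, minimums, folds and scalings (median-of-ratios over 17206 genes, and per chromosome), a counting-interval rule and the summed loci. Python 3.11.15, NumPy 2.4.6, pandas 2.3.3 and SciPy 1.17.1 were used.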

Additional observations from a re-analysis of the deposited data

How the results depend on the processing

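No replicate could be left out with 1 library per stage. No paired analysis was possible because each group has 1 sample and no test was made. The counts of the 3 genes called higher or lower in the 6 comparisons kept their value with a pseudocount of 0.1. From stage D to stage E the count of 2 lower became 3 with no minimum, median-of-ratios scaling and the counting-interval rule. From stage A to stage B the count of 3 lower became 0 at 4-fold. From stage C to stage D the count of 2 higher became 1 with a pseudocount of 5, a minimum of 20 RPM, 4-fold, the counting-interval rule and same-chromosome scaling. From stage B to stage D the count of 2 lower became 1 with a pseudocount of 5, a minimum of 20 RPM, median-of-ratios scaling, same-chromosome scaling and the interval rule, and 0 at 4-fold. It became 1 in the comparison of stages D and E at 4-fold and with a minimum of 20 RPM. The causes were not tested beyond what each setting changes by its construction. Of 18 single differences, 16 kept their call and direction under median-of-ratios and 16 under same-chromosome scaling. Summing the 3 loci gave a log2 difference of 1.42 from stage C to stage D, where GL1 alone went down by less than the rule. With Pearson's correlation in place of the root mean square difference, 1, 0 and 2 of the 5 nearest genes were shared for GL1, WER and MYB23. Depth limits GL1 most, with 16 reads in stage E.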

Other observations

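The evenness of stage C was not particular to MYB loci. Among 96 descriptions shared by at least 20 loci, the standard deviation of log2(RPM + 1) within the family was lowest in stage C for 60. The drop was relatively larger than in the MYB family for 2 of them, the cysteine-rich receptor-like kinases (0.49 in stage C and at least 1.33 elsewhere, 38 loci) and the xyloglucan endotransglucosylase/hydrolases (1.58 and at least 3.26, 28 loci). NAC domain proteins were close, with 0.77 in stage C and at least 1.34 elsewhere (48 loci). The 75 loci described as bHLH superfamily proteins, which include GL3 and EGL3, stood at 1.45 in stage C and 1.47 in stage D. Reads on MYB loci of chromosome 1 made up 35.4% of all MYB reads in stage C, against 11.6% to 18.7% elsewhere.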
